A study of Mus musculus with 2 samples.

Results

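The cytoplasmic ribosomal protein genes were examined in 2 single-cell RNA libraries made in droplets from the peripheral retina of mice. Members were all genes whose symbol starts with Rps or Rpl, without the Rps6k kinases and without symbols that contain -ps. Of 27998 listed genes, 87 met the symbol rule and 84 of them had at least 50 unique molecular identifiers (UMIs, the tags that mark each captured transcript) over both libraries. The 3 left out were Rpl10l and Rpl39l, both with 0 UMIs, and Rpl3l, with 29. By their names, 33 members encode proteins of the small subunit and 49 of the large subunit. The remaining members are Rps19bp1, named for a binding partner of Rps19, and Rpl7l1, a ribosomal protein-like gene, neither of which is a subunit by name. Rpl6l carries a large subunit name but is annotated as a processed pseudogene.

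Both libraries came from retina at postnatal day 8 of mice with the α-Cre driver, floxed Rb (Rb f/f) and no p107 (p107-/-). The first, called DKO, has no further allele and is described by the labels as tumor-prone. The second, called DKO_Skp2het, has in addition 1 lost copy of Skp2 (Skp2+/-) and is described as tumor-resistant. The Skp2 protein brings the cell cycle inhibitor p27 to a ubiquitin ligase and so to its degradation. α-Cre acts in peripheral retinal progenitors, so cells that enter the retina from outside, such as microglia, lack p107 but are not expected to carry the Rb deletion. There was 1 library per genotype, the number of animals behind each is not given in the sources used here, and no wild-type retina was part of the comparison. Genotype and library therefore cannot be told apart, no difference described here has a replicate check, no test was made, and the 95% intervals cover counting error only.

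Ribosomal proteins are made in large and nearly equal amounts and are assembled on ribosomal RNA in the nucleolus into the subunits that carry out translation in the cytoplasm. Their mRNAs are short, abundant and translated together, since most begin with a C followed by a run of pyrimidines, the terminal oligopyrimidine (TOP) motif through which mTOR signalling sets their translation. Free Rpl5 and Rpl11 bind Mdm2, the ligase of p53, when subunit assembly is disturbed. A few members have paralogues that can take their place in the ribosome, among them Rps27 with Rps27l and Rpl22 with Rpl22l1.

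Start sequences were printed for the members on which the results turn, because the pyrimidine start is the feature by which the family is known. Promoter entries from RefSeq (GRCm38.p6) were found for 63 of the 84 members. Each sequence below holds the 20 bases before the annotated transcription start and the first 20 transcribed bases, 5′ to 3′ on the transcript's strand, and capitals mark its longest run of C and T. The first 4 are members that were low in DKO_Skp2het relative to the family, and the last 4 are the paralogues Rps27l and Rpl22l1, the large subunit gene Rpl10a, and Rps6, whose protein is phosphorylated downstream of mTOR.
Rps27: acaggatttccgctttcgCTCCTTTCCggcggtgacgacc
Rpl38: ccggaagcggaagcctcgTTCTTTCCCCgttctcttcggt
Rps21: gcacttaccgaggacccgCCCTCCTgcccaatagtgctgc
Rps28: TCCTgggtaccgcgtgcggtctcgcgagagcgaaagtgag
Rps27l: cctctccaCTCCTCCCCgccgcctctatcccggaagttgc
Rpl22l1: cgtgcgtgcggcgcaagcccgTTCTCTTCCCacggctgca
Rpl10a: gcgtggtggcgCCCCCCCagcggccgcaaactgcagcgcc
Rps6: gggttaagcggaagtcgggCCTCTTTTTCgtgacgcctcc
In that order they lie at chr3:90213629-90213668 on the minus strand, chr11:114668560-114668599 and chr2:180257359-180257398 on the plus strand, chr17:33824543-33824582 on the minus strand, chr9:66946066-66946105, chr3:28805488-28805527 and chr17:28328451-28328490 on the plus strand, and chr4:86857348-86857387 on the minus strand. In Rps27, Rpl38, Rps21 and Rps6 the run covered the annotated start, in Rps28, Rps27l and Rpl10a it ended upstream of it, and in Rpl22l1 it began just after it. A C at the annotated start followed by at least 4 bases that are C or T, searched on the transcript's strand only, was found in 14 of 63 members (22.2%), and in 3.01% of all genes of the same promoter table. A run of at least 8 pyrimidines anywhere in the window was found in 47.6% of members and 18.4% of all genes. A start annotated a few bases away from the one in use would miss the motif, so these matches describe the annotation only.

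The DKO library held 3621 barcodes and 24413761 UMIs and the DKO_Skp2het library 5196 barcodes and 25766024 UMIs, and 30 barcode sequences occurred in both. After filters and doublet removal 3515 and 4978 cells were kept, with a median of 4861 UMIs per cell in DKO and 3800 in DKO_Skp2het. Skp2 itself was at 80.09 and 56.49 CPM (UMIs of a gene per 1000000 UMIs of the library), a ratio of 0.705 (95% interval 0.657 to 0.757), in the direction of the label. The 3′ tags of Rb1 and Rbl1 need not lie in the deleted parts and check nothing. A cell was called dividing if it held at least 3 UMIs of 26 core proliferation genes after thinning to 1500 UMIs, which applied to 59.3% of DKO and 48.0% of DKO_Skp2het cells. Of 26 immediate-early genes of the dissociation response, 9 were higher and 3 lower by more than 1.2-fold in DKO_Skp2het, and 20 had a ratio above 1, as had 7517 of all 13473 genes with at least 50 UMIs. Jun was at 1.39 and Btg2 at 1.38, Klf4 at 0.716 and Ier5 at 0.832. Clusters with markers of rods, cones, bipolar cells, amacrine cells, Müller glia and progenitors were found, as the labelled tissue should hold. The part of depth, cell makeup and dissociation in the results was not tested.

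Ribosomal protein genes took a large part of all UMIs, and a slightly smaller one in DKO_Skp2het. Their share of UMIs over all kept cells was 15.97% in DKO (95% interval 15.95 to 15.98) and 15.11% in DKO_Skp2het (15.10 to 15.13), a ratio of DKO_Skp2het over DKO of 0.946 (0.945 to 0.948). The spread between cells was far wider than this difference: the quartiles over cells were 12.9% and 18.9% in DKO and 12.3% and 18.4% in DKO_Skp2het. Small subunit genes took 7.04% and 6.63% of UMIs (ratio 0.941) and large subunit genes 8.91% and 8.47% (ratio 0.951), so the lower share was seen in both subunits. Standardised to the same mix of classes and dividing states, the ratio was 0.914, and to the same mix of clusters and dividing states it was 0.9. Among 17 clusters with at least 50 cells in each library the share was lower in DKO_Skp2het in 16, with ratios from 0.845 to 1.00.

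Dividing cells held a smaller ribosomal protein share than cells that were not dividing, in both libraries. The share in DKO was 14.88% in 2083 dividing and 17.80% in 1432 other cells, a ratio of dividing over not dividing of 0.836 (95% interval 0.834 to 0.837). In DKO_Skp2het it was 13.46% in 2388 dividing and 16.87% in 2590 other cells, a ratio of 0.797 (0.796 to 0.799). Clusters were built without the ribosomal protein genes and a fixed list of cell cycle genes, so division genes outside that list could still shape them. In clusters with at least 20 cells of each state, dividing cells had the lower share in 12 of 12 pairs of cluster and library. These pairs covered 7 clusters, with ratios from 0.772 to 0.927. Within a class the gap was widest in progenitor-like cells (0.592 in DKO and 0.612 in DKO_Skp2het), where 2 clusters of different share make up the 2 states, and in immature neuron-like cells (0.773 and 0.705). It was narrow in Müller glia-like cells (0.938 and 0.949), and rod-like cells of DKO showed none, at 14.55% in 28 dividing and 14.54% in 123 other cells.

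By number of core proliferation UMIs, the share was highest at 1 to 2 and lower with each bin above. In DKO it was 17.61% in cells with 0 such UMIs, 17.99% with 1 to 2 and 17.62% with 3 to 5, which is flat across the limit of the dividing call. It was then 15.96% with 6 to 10, 14.07% with 11 to 20 and 12.81% with 21 or more. The same bins of DKO_Skp2het gave 16.62%, 17.14%, 16.12%, 14.33%, 12.41% and 11.45%, lower than DKO in each bin. Dividing cells with more S phase than G2M phase UMIs had a share of 17.25% in DKO and 15.42% in DKO_Skp2het, and those with more G2M UMIs 14.41% and 12.83%. Proliferation UMIs are themselves part of the total. The cell cycle lists made up 3.01% of UMIs in dividing DKO cells and 0.578% in the others, and with them left out of the total the ratio of dividing over not dividing cells was 0.855 in DKO and 0.817 in DKO_Skp2het.

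**Figure D1:**
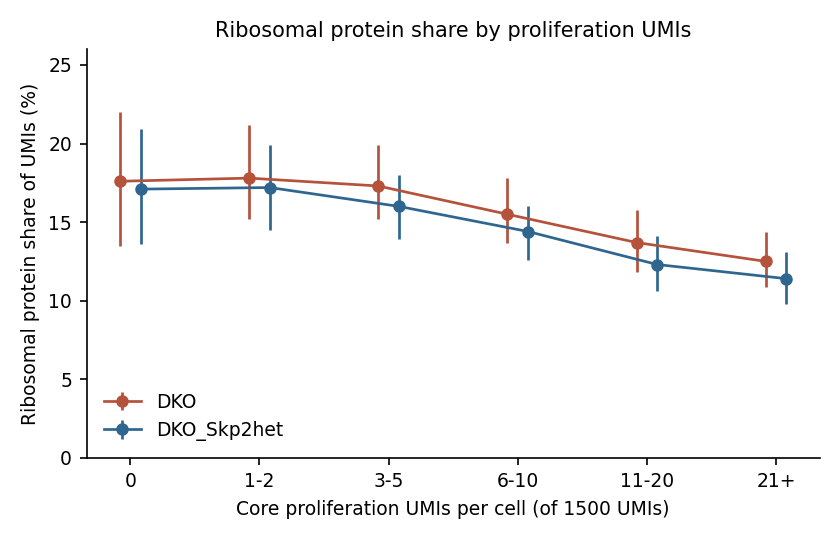
Ribosomal protein share of UMIs per cell (%, y axis) by the number of core proliferation UMIs among 1500 UMIs of the cell (x axis); points are medians over cells, vertical lines run from the first to the last quartile, red is DKO and blue DKO_Skp2het. The median DKO cell was at 17.6% with 0 proliferation UMIs and at 12.5% with 21 or more, and the median DKO_Skp2het cell at 17.1% and 11.4%.

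The members kept to this pattern nearly without exception. CPM was lower in dividing than in other cells in both libraries for 82 of 84 members, against 49.7% of all genes. Over these 82 the ratio of dividing over not dividing cells ranged from 0.666 to 0.987 in DKO, median 0.829, and from 0.663 to 0.925 in DKO_Skp2het, median 0.790. The exceptions were Rps27l and Rpl7l1. Rps27l was at 798 CPM in dividing and 561 in other DKO cells and at 856 and 620 in DKO_Skp2het, higher by a ratio of 1.42 and 1.38, while its paralogue Rps27 was at 2886 against 3474 CPM in DKO and 1992 against 2561 in DKO_Skp2het. Rpl7l1, not a subunit by name, was at 62.4 against 57.0 and at 66.8 against 60.7 CPM, ratios of 1.09 and 1.1. These rest on 912 and 496 UMIs in DKO and 819 and 702 in DKO_Skp2het, and no interval was computed. Rpl7l1 is thus a weak exception. Taken relative to the family, 3 members were past 1.2-fold the same way in both libraries, where 52.2% of all genes were past 1.2-fold from the median gene. These were Rps27l (1.70 and 1.73) and Rpl7l1 (1.31 and 1.38) on the high side and Rpl10a (0.797 and 0.832) on the low side. Ribosomal genes outside the symbol rule were lower in dividing cells too: Fau, which encodes a small subunit protein fused to a ubiquitin-like one, at ratios of 0.887 and 0.895, and Gnb2l1, the scaffold Rack1, at 0.817 and 0.766.

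Between retinal cell classes the share varied more than between the libraries. Classes are called "X-like" after clusters that carry a fixed set of markers, and cells of clusters that met no set (891 in DKO and 1449 in DKO_Skp2het) stay unnamed. Among classes of 50 or more cells in both libraries it was highest in immature neuron-like cells, with 19.72% in DKO and 19.50% in DKO_Skp2het, against 15.41% and 14.60% in all other cells. It was lowest in amacrine-like cells, with 12.83% and 11.28%, and in neurogenic precursor-like cells, with 13.00% and 11.96%. Rod-like cells had 14.54% and 14.50%, bipolar-like cells 16.68% and 15.82%, Müller glia-like cells 16.94% and 14.64% and amacrine-horizontal precursor-like cells 16.83% and 15.38%. Median depth ran from 4245.5 UMIs per cell in Müller glia-like to 8404 in amacrine-horizontal precursor-like cells of DKO, and its part in the order was not tested. The neighbours bipolar-like, Müller glia-like and amacrine-horizontal precursor-like cells of DKO differed by less than the spread between their cells.

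Progenitor-like cells need the 2 states apart. Their share was 15.61% in DKO and 15.75% in DKO_Skp2het, the only class of 8 in which DKO_Skp2het was not lower, yet within dividing cells it was 14.09% and 12.68% and within other cells 23.81% and 20.71%. The class is made of a dividing cluster led by Tagln2, Iqgap3 and Prc1 (504 and 469 cells) and a mostly not dividing one led by Hes5 and Sox8 (186 and 716 cells), so the first holds most of the class in DKO and the second in DKO_Skp2het. The Hes5 cluster had a share of 22.88% in DKO and 20.21% in DKO_Skp2het. Of 17 clusters with 50 or more cells in both libraries it was the highest in DKO, while in DKO_Skp2het an immature neuron-like cluster reached 20.47%. A neurogenic precursor-like cluster led by Txnip, Myc and Gadd45b, genes of stress and growth responses, had the lowest share of these 17 in both libraries, 12.2% and 10.48%. Below the minimum of 50 cells, cone-like cells (43 and 62) had 13.19% and 11.88% and microglia-like cells (31 and 41) 24.82% and 19.95%. RNA set free from broken cells was not subtracted.

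**Figure D2:**
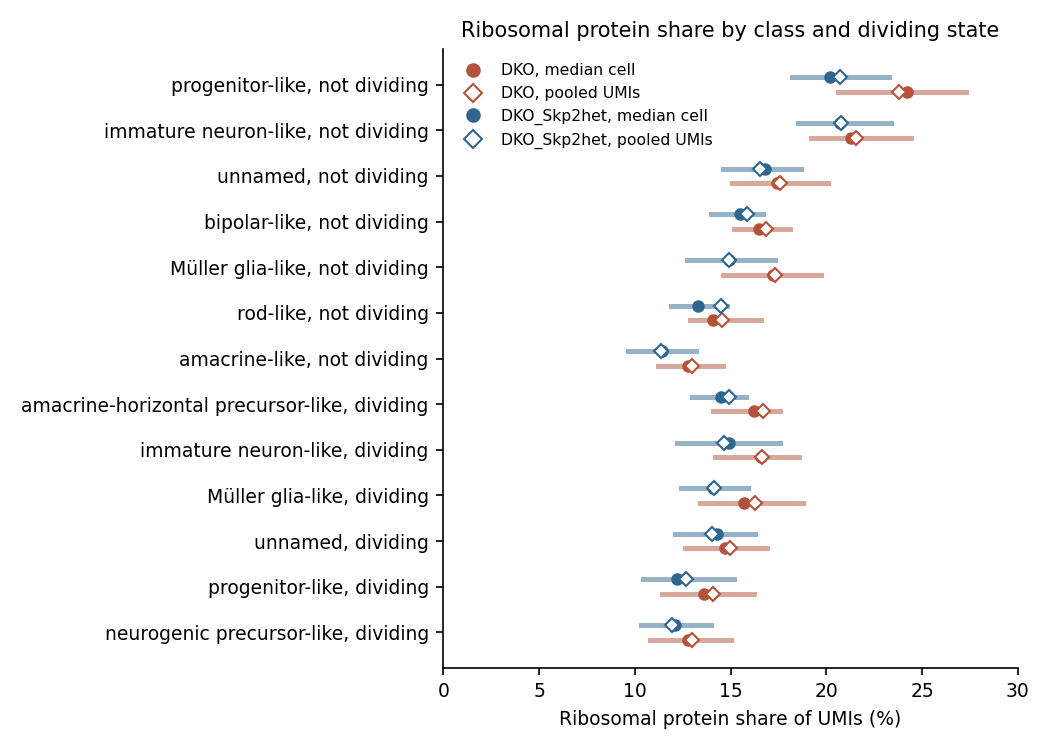
Ribosomal protein share of UMIs (%, x axis) by class and dividing state, where both libraries held 50 cells or more; filled points are medians over cells, bars the quartiles, open diamonds the pooled share, red DKO and blue DKO_Skp2het. Not dividing progenitor-like cells (23.81% and 20.71% pooled) and not dividing immature neuron-like cells (21.56% and 20.79%) lie highest, and amacrine-like and dividing neurogenic precursor-like cells lowest.

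Between the libraries most members moved together. The median member had a CPM ratio of DKO_Skp2het over DKO of 0.973, against 1.02 for the median gene with at least 50 UMIs, and 55 members were lower and 29 higher in DKO_Skp2het. For 67 of the 84 the ratio was within 10% of the family median. In plain CPM 11 members were lower by more than 1.2-fold and 0 higher, where 9.71% of all genes were lower and 15.1% higher by that fold. Measured from the family median, 7 members were past 1.2-fold, all of them low, which is 8.33% of the members beside 24.6% of all genes past 1.2-fold from the median gene, 11.4% on the low and 13.2% on the high side. These shares include genes of few UMIs. Among genes with at least 1000 UMIs, a depth that all 84 members reach, 6.69% were on the low side of the median gene and 4.82% on the high side, and in plain CPM 5.16% were lower and 6.31% higher. At that depth the low share of members measured from the family (8.33%) was thus near that of genes at large. In plain CPM the members were more often low (13.1%), and by either measure 0 were high. The fold of 1.2 is an arbitrary size.

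The 7 low members were Rps27rt, Rps28, Rps29, Rps27, Rpl38, Rps21 and Rpl37, 5 of them in the small subunit. Rps29, a small zinc-binding protein of the small subunit encoded on chromosome 12 (GRCm38, 69157722 to 69159186), was at 4185 CPM in DKO and 2985 in DKO_Skp2het, a ratio of 0.713 (95% interval 0.706 to 0.720). Rps28 (chromosome 17, 33819027 to 33824562) was at 2122 and 1452 CPM, a ratio of 0.684 (0.675 to 0.694). Rps27, a zinc finger protein of the small subunit (chromosome 3, 90212522 to 90213651), was at 3105 and 2268 CPM, a ratio of 0.730 (0.722 to 0.739). In each case the DKO library was the higher one by a margin far outside counting error.

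Rpl38, a large subunit protein known from skeletal patterning defects in the mouse (chromosome 11, 114668524 to 114672331), was at 1819 and 1384 CPM, a ratio of 0.761. Rps21 (chromosome 2, 180257377 to 180258445) was at 1111 and 865 CPM, a ratio of 0.778, and Rpl37 (chromosome 15, 5116645 to 5119140) at 2421 and 1943 CPM, a ratio of 0.803. Rps27rt (chromosome 9, 114982366 to 114982739) was at 309 and 211 CPM, a ratio of 0.684, but 89.8% of the 90-base words at the 3′ end of its annotated transcript also occur in Rps27. Its UMIs were 9.04% of the summed UMIs of the pair in DKO and 8.51% in DKO_Skp2het, and between 7.5% and 10.8% in each class and library, so its value cannot be told apart from reads of Rps27. Rps27 in turn shares 98.4% of its words with Rps27rt. Rps28 shares 68.7% with other annotated transcripts, and 42.3% with Gm10263 of the deposited list. Relative to the family median, Rpl37, at 0.825, was the last member past the fold, and Rpl37a, at 0.839, the first that did not pass it. The 7 genes together took 1.51% of UMIs in DKO and 1.11% in DKO_Skp2het, and without them the family share was 14.5% and 14.0%.

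The same members were low in nearly every class. The classes are subsets of the cells in which these members were picked. They are not replicates, and the recurrence is no separate check. In 7 classes with at least 100 cells in both libraries, Rps28, Rps29, Rps27, Rpl38 and Rps27rt were more than 1.2-fold below the family median in 7 of 7, Rps21 in 5 and Rpl37 in 3. For Rps28 the plain CPM ratio lay between 0.602 and 0.786 over these classes and for Rps29 between 0.669 and 0.756. In dividing cells Rps28 was at 1936 and 1233 CPM and in other cells at 2434 and 1684, ratios of 0.637 and 0.692. Rps29 was at 3985 and 2694 CPM in dividing and at 4521 and 3293 in other cells. By class, the low members numbered 8 in amacrine-like cells (17.8% of all genes were low by that fold), 9 in bipolar-like (22.7%), 8 in immature neuron-like (17.1%), 8 in Müller glia-like (15.0%), 6 in neurogenic precursor-like (16.7%), 8 in progenitor-like (15.3%) and 7 in rod-like cells (18.2%). For genes that reach 1000 UMIs in the class the shares were, in the same order, 14.0%, 10.2%, 9.72%, 7.88%, 7.23%, 12% and 6.65%, beside 7.14% to 10.7% of members. Members were counted at any depth, and some do not reach 1000 UMIs in a class. Rpl7l1 was counted as low in rod-like (69 and 52 UMIs) and immature neuron-like cells (208 and 141 UMIs). Its CPM ratio intervals there, 0.534 to 1.14 and 0.66 to 1.02, include 1. The other low members had intervals below 1 in each class. In dividing cells 8 members were low and 2 high by more than 1.2-fold from the family, beside 15.0% and 14.2% of all genes, and in other cells 9 were low and 0 high, beside 14.8% and 13.2%. Among genes with at least 1000 UMIs the low shares were 8.45% in dividing and 7.1% in other cells, against 9.52% and 10.7% of members.

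On the high side no member passed 1.2-fold over all cells. Rpl3, which lies near the peptidyl transferase centre of the large subunit, came nearest, at 1817 CPM in DKO and 2073 in DKO_Skp2het, a ratio of 1.14 (1.13 to 1.16) and 1.17 relative to the family. It was past 1.2-fold above the family in 5 of 7 classes. High members of any name numbered 1 in amacrine-like cells (17.6% of all genes), 3 in bipolar-like (20.2%), 1 in immature neuron-like (16.4%), 1 in Müller glia-like (16.7%), 3 in neurogenic precursor-like (16.5%), 2 in progenitor-like (16.5%) and 1 in rod-like cells (17.6%). For genes with at least 1000 UMIs in the class these shares were 2.71% to 8.89%, a depth that some of the high members do not reach. Intervals of the CPM ratio included 1 for Rpl7l1 in amacrine-like cells (40 and 43 UMIs, 0.892 to 2.22). They also did for Rpl7l1 (45 and 57 UMIs, 0.815 to 1.86) and Rps19bp1 (88 and 110 UMIs, 0.906 to 1.62) in bipolar-like cells, and for Rpl6l in rod-like cells (0.98 to 1.5). Rpl3 had intervals above 1 in each class where it was counted. Rps2, a small subunit protein, was at 1129 and 1264 CPM, a ratio of 1.12 (1.1 to 1.14). Both share most of their 90-base words with other annotated transcripts (81.0% and 70.4%), and 40 of the 84 members do so for more than 50% of their words, so small differences between members are uncertain.

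The order of the members followed the length of their coding sequence. Over 83 members with a coding sequence, the CPM ratio and the coding length had a Spearman correlation of 0.707 and a Pearson correlation of 0.685, given as a description, since the members share their libraries. With GC content the Spearman correlation was -0.04 and with CPM in DKO it was -0.19. The 20 members with a coding sequence of at most 355 bases had a summed CPM ratio of 0.834 (95% interval 0.832 to 0.837), and 10 of them were lower by more than 1.2-fold in CPM, beside 9.71% of all genes and 5.16% of those with at least 1000 UMIs. The next 3 length groups, of 21, 22 and 20 members, gave 0.949 (356 to 448 bases), 0.994 (449 to 612 bases) and 1.02 (613 to 1257 bases). Exceptions were few: Rpl41, which with 75 coding bases is the shortest, was at 4660 and 4195 CPM, a ratio of 0.9. Rps27l (252 coding bases) had a ratio of 1.04, Rpl36al 1.11 and Rpl22l1 1.09, all 3 of them minor paralogues. By class the Rps27l ratio varied from 0.794 to 1.14, so it was not an exception in each of them.

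**Figure D3:**
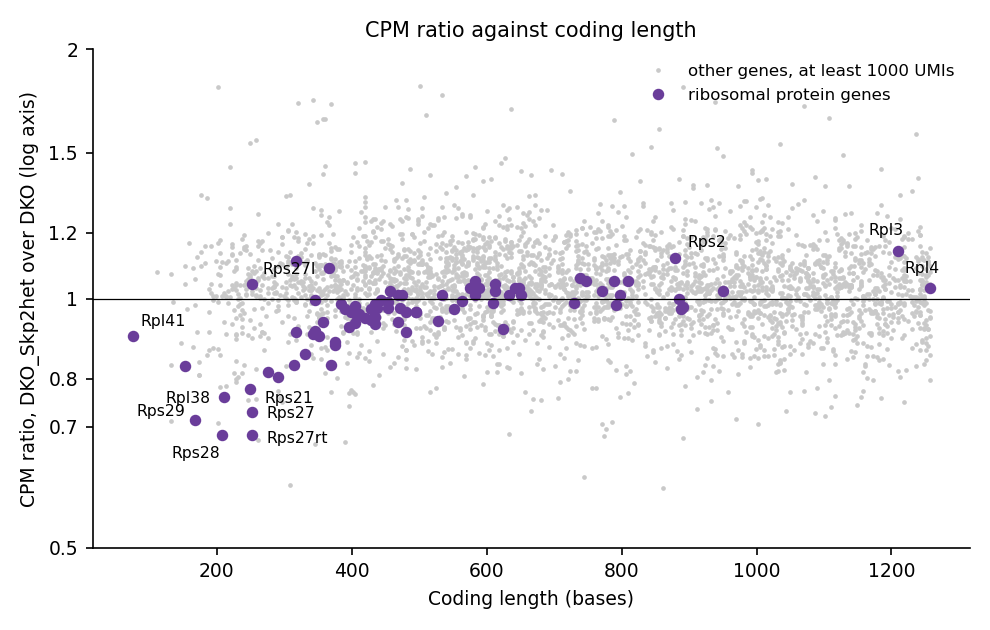
CPM ratio of DKO_Skp2het over DKO (y axis, log scale) against coding length in bases (x axis) for 83 ribosomal protein genes (purple) and other genes with at least 1000 UMIs up to the same length (grey). The purple points tend to rise with length, between the extremes Rps28 (207 bases) at 0.684 and Rpl3 (1209 bases) at 1.14. The shortest member, Rpl41, is at 0.9 and the longest, Rpl4, at 1.03. The grey cloud has no such slope.

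Other genes did not follow coding length in this way. Over 3324 other genes with at least 1000 UMIs and a coding sequence no longer than that of the longest member, the Spearman correlation was -0.07. Other genes in the same range as the shortest members had a summed ratio of 1.01. Counted by the whole annotated transcript, however, the shortest genes outside the family were lower as well. All 7 members with a transcript of at most 400 bases (Rps28, Rps27, Rpl38, Rps27rt, Rpl36, Rps29 and Rps21) were lower by more than 1.2-fold in CPM, with a summed ratio of 0.737. The 13 other genes of that length had a summed ratio of 0.856 and a median of 0.838, with 6 lower and 0 higher by more than 1.2-fold.

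Of the 6 low genes 3 are encoded by the mitochondrial genome: mt-Nd3, a complex I subunit, at 353 CPM in DKO and 236 in DKO_Skp2het, mt-Atp8 (ratio 0.707) and mt-Nd4l (0.758). Atp5k and Usmg5, small subunits of the ATP synthase, were at 475 and 372 and at 556 and 450 CPM. On the other side Gng13 had a ratio of 1.17 (1.06 to 1.29), Chchd7 1.07 (1.02 to 1.13) and Ndufc1 1.03. From 400 to 500 bases the summed ratio was 0.914 over 13 members and 0.966 over 54 other genes, and from 500 to 700 bases it was 0.957 over 22 members and 1.03 over 173 other genes. Short transcripts were thus low in DKO_Skp2het inside and outside the family, with the lower summed ratio inside it, and the part of transcript length as such was not tested. Transcript lengths are those of the shortest principal annotated transcript, which for Rpl37, at 835 bases, is far longer than its coding sequence.

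The shift with length was present in single cells and in every class. Cells and classes are parts of the same libraries and are not replicates. In the median cell the 20 members with the shortest coding sequences gave 26.5% of ribosomal protein UMIs in DKO (quartiles 24.8% and 28.3%) and 23.2% in DKO_Skp2het (21.6% and 25.1%). The 20 longest gave 21.5% and 23.1%. The quartiles of the short members overlapped only slightly between the libraries. The shortest length group had the lowest summed ratio of the 4 in each of 10 classes, cone-like and microglia-like cells included, from 0.726 in microglia-like to 0.878 in progenitor-like cells. The longest group lay above 1 in progenitor-like (1.1), rod-like (1.07), immature neuron-like (1.07) and bipolar-like cells (1.03) and below it in Müller glia-like (0.931) and amacrine-like cells (0.929).

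**Figure D4:**
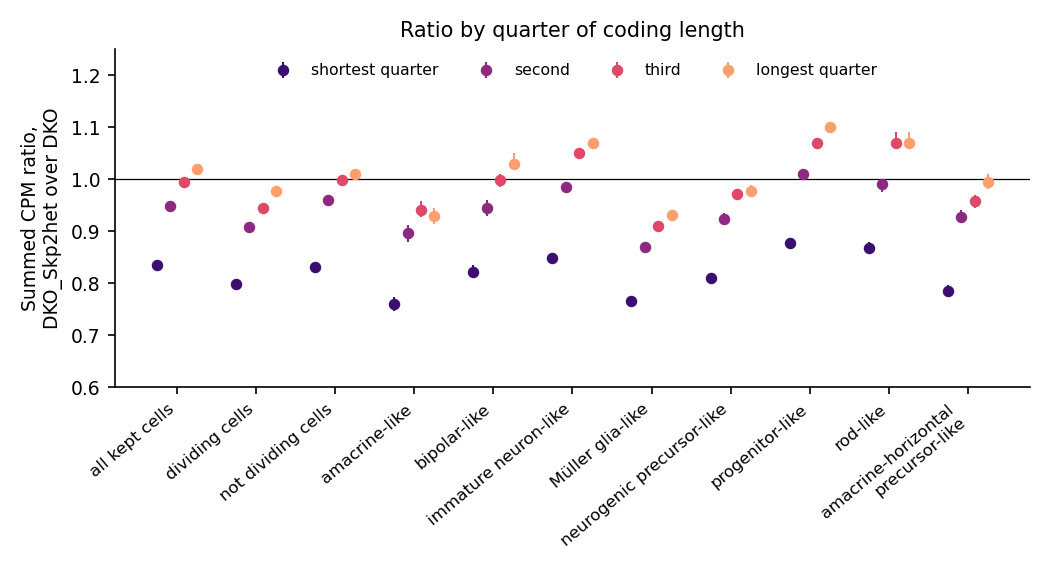
Summed CPM ratio of DKO_Skp2het over DKO (y axis) for members in 4 groups by coding length, over all kept cells, by dividing state and by class (x axis); vertical lines are 95% intervals of counting error. The shortest group (dark) lies lowest in each population, at 0.834 over all kept cells.

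Paralogue use differed between the classes. Rps27l, a p53 target that can replace Rps27 in the small subunit, was the member whose part of the family varied most. In amacrine-like cells it was at 193 CPM in DKO and 164 in DKO_Skp2het, against 735 and 762 in all other cells. Relative to the family that is 0.330 and 0.290. It was also more than 1.5-fold below the family in both libraries in bipolar-like (0.484 and 0.366), immature neuron-like (0.489 and 0.378) and microglia-like cells (0.369 and 0.445). It was highest in Müller glia-like cells, at 918 and 897 CPM, progenitor-like cells, at 849 and 897, and amacrine-horizontal precursor-like cells, at 849 and 888. Rod-like and cone-like cells lay between, at 559 and 572 CPM in DKO and 523 and 407 in DKO_Skp2het.

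Rps27l as a share of the pair with Rps27 was 9.37% in amacrine-like and 22.9% in neurogenic precursor-like cells of DKO, and 10.8% and 32.4% in DKO_Skp2het. Over all cells it was 18.6% (95% interval 18.4 to 18.9) in DKO and 24.6% (24.3 to 25) in DKO_Skp2het. Summed over all cells Rps27l differed little between the libraries, at 710 and 742 CPM (ratio 1.04), while Rps27 had a ratio of 0.73. By class, however, the Rps27l ratio ran from 0.794 in bipolar-like to 1.14 in neurogenic precursor-like cells. The share of the pair moved little in bipolar-like (10.0% and 10.8%) and immature neuron-like cells (11.1% and 12.1%), and more in Müller glia-like cells (20.9% and 29.0%). Among cells that were not dividing this share was 13.9% and 19.5%, so the gap between the libraries was present outside the dividing cells.

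Rpl22l1, which stands in for Rpl22 in the large subunit, followed another order. Among classes of 50 or more cells in both libraries it was highest in amacrine-like cells, at 924 and 923 CPM, where it made up 65.0% and 65.8% of the pair with Rpl22. Progenitor-like cells had 780 and 874 CPM, and 50.1% and 51.2% of the pair. It was low in rod-like cells, at 360 and 357 CPM, and in amacrine-horizontal precursor-like cells, at 369 and 329 CPM, 28.9% and 27.5% of the pair. Relative to the family it was past 1.5-fold high in amacrine-like (2.16 and 2.1) and progenitor-like cells (1.55 and 1.54) and past it low in amacrine-horizontal precursor-like cells (0.608 and 0.525). The order of these 4 classes was nearly the same in both libraries. Rpl36al made up 27.5% of the pair with Rpl36a in DKO and 31.6% in DKO_Skp2het, between 22.9% in immature neuron-like and 36.5% in amacrine-like cells of DKO.

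Rpl10a, a large subunit protein, was high in the photoreceptor classes. In rod-like cells it was at 2793 CPM in DKO and 2993 in DKO_Skp2het, against 1688 and 1742 in all other cells, 1.83 and 1.79 relative to the family. In cone-like cells it was at 2368 and 2723 CPM (1.67 and 1.95), and in microglia-like cells at 5007 and 3821 CPM (1.87 and 1.62). Of its 90-base words 89.7% occur in other annotated transcripts, none of them from a gene of the deposited list. Rpl10, Rplp0 and Rps26 were more than 1.5-fold low relative to the family in cone-like cells. In microglia-like cells Rps29 was high, and Rpsa, Rps27l and the 2 genes that are no subunits by name were low. Rps19bp1 was high in amacrine-like cells, at 150 and 154 CPM against 97.3 and 94.9 in all other cells (1.93 and 2.19).

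Set against all genes, few members departed from the family in any class. Past 1.5-fold the same way in both libraries were 3 of 84 members in amacrine-like cells, where 44.5% of all genes were past it from the median gene, 1 in rod-like (41.2%), 1 in bipolar-like (37.7%), 1 in immature neuron-like (34.7%), 1 in progenitor-like (28.2%) and 1 in amacrine-horizontal precursor-like cells (18.4%). In Müller glia-like (32.2%) and neurogenic precursor-like cells (32.4%) there were 0. Among the small classes, cone-like cells had 4 (45.3%) and microglia-like cells 7 (58.2%).

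**Figure D5:**
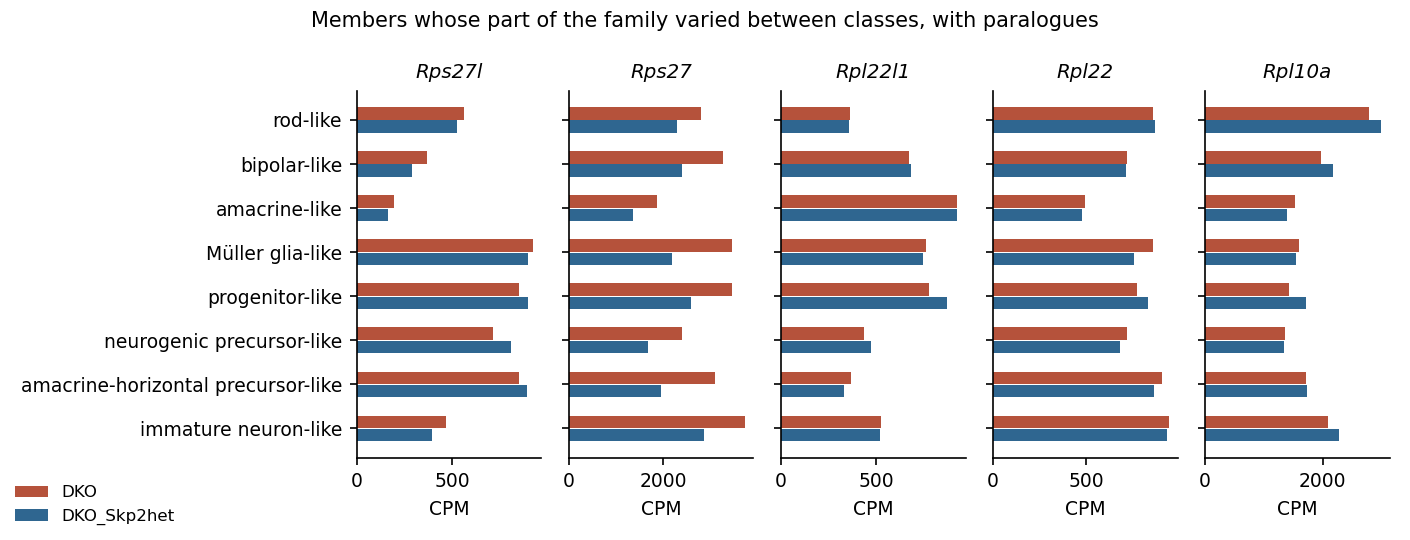
CPM (x axis, each panel with its own scale from 0) of Rps27l, Rps27, Rpl22l1, Rpl22 and Rpl10a in 8 classes (y axis), red DKO and blue DKO_Skp2het, 1 library each. Rps27l is lowest in amacrine-like cells (193 and 164 CPM), Rpl22l1 highest there (924 and 923), and Rpl10a highest in rod-like cells (2793 and 2993).

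Other groups of members stayed near the family. The members with the highest CPM over both libraries were Rpl41 (4660 in DKO and 4195 in DKO_Skp2het), Rps19 (3674 and 3492), Rps29, Rpl13 (3540 and 3574) and Rpl13a (3141 and 3108), and those with the lowest were Rpl7l1 (60.4 and 63.8), Rpl29 (80.1 and 72.9) and Rps19bp1 (99.7 and 96.9). A 3′ kit gives 1 UMI per captured transcript whatever its length, so CPM was not divided by length. The P stalk, which recruits elongation factors to the large subunit, had Rplp0 at 1724 and 1761 CPM, Rplp1 at 2486 and 2255 and Rplp2 at 2533 and 2312, ratios of 1.02, 0.907 and 0.913. Rpsa, also known as the laminin receptor, was at 1520 and 1523 CPM and Rps6 at 1953 and 2044. Of 11 members linked to p53 through Mdm2 or as targets, 8 were lower and 3 higher, with ratios from 0.932 (Rps15) to 1.04 (Rps27l). Rpl5, at 434 and 424 CPM, and Rpl11, at 1933 and 1944, the best known of them, had ratios of 0.977 and 1.01. Of the main members of the paralogue pairs, Rps4x had a ratio of 1.05, Rpl7 1.05, Rpl10 1.03, Rpl22 0.986, Rpl36a 0.912 and Rpl39 0.829.

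In DKO_Skp2het the elongation, initiation, biogenesis and mitochondrial ribosome lists had medians slightly above that of all genes, and the ribosomal proteins one slightly below it. The median log2 difference of CPM, with a pseudocount of 5, was -0.04 over the 84 members and 0.02 over all genes with at least 50 UMIs, of which 7517 of 13473 were higher. It was 0.09 over 11 elongation genes, 8 of them higher, 0.08 over 32 initiation genes, 22 higher, 0.04 over 73 ribosome biogenesis genes, 45 higher, and 0.05 over 76 mitochondrial ribosomal proteins, 62 higher. None of these medians is far from that of all genes, and a majority of all genes was higher too. The elongation factors Eef1a1 (4055 and 4269 CPM) and Eef2 (1189 and 1297 CPM), themselves made from TOP mRNAs, had ratios of 1.05 and 1.09, and Tpt1, another TOP mRNA, 0.936. Fau and Gnb2l1 had ratios of 0.943 and 0.971.

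Single genes of these lists stood further out. The lists are broad, and a gene given under one need not have the named function itself. Eif1ax and Eif3k, of translation initiation, had ratios of 1.2 each, and Eif3j1 and Eif2s2 of 0.838 and 0.9. In the elongation list, Eef1d was at 1.2 and Eef1a2 at 1.14, against Eef1e1 at 0.905 and the kinase Eef2k, with few UMIs, at 0.741. Of biogenesis, Npm1 (847 and 980 CPM) was at 1.16 and Nop16 at 1.19, with Nat10 at 0.783 and Ddx18 at 0.864. In the list for chaperones and nascent chain factors, Hspa8 was at 1.3 and Srp14 at 1.2, and Nsa2 at 0.844 and Dnajc21 at 0.918. The RNA polymerase list, with a median log2 difference of 0.00, had Polr1d and Polr3k at 1.14 and Taf1d and Brf1 at 0.851 and 0.876. Among mitochondrial ribosomal proteins Mrpl17 was at 91.5 and 114 CPM and Mrps25 at a ratio of 1.22, and Mrpl52 at 0.867 and Mrps5 at 0.901. In the list for regulators around Myc, mTOR and Mdm2, Mycn (146 and 113 CPM) and Mtor (19.5 and 15.2) were at 0.775 and 0.780, and Ei24 and Trp53 at 1.13 and 1.1. In dividing against other DKO cells, 21 of 32 initiation genes were higher (median log2 difference 0.10) and 10 of 11 elongation genes lower (-0.30), where 5360 of 12203 genes at large were higher and 6843 lower.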

How the data were processed

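Counts are deposited UMI counts per gene and barcode, made with Cell Ranger 2.2.0 on the mm10 build, per the submitters' processing notes. How barcodes were selected is not given in the sources used here. The dissociated tissue was the area of α-Cre activity. Kept were barcodes in which 500 or more genes were detected and mitochondrial UMIs stayed at or below 20%, less those with the highest doublet scores (computed as in Scrublet, 0.8% per 1000 barcodes, 105 in DKO and 216 in DKO_Skp2het). Cells were clustered on 2000 variable genes without listed cell cycle genes and without mitochondrial and ribosomal protein genes (30 components, 15 neighbours, leidenalg 0.10.2 at resolution 1.0). A cluster was named when its markers averaged a log2 fold of at least 1.0 and at least 3 exceeded 2-fold. The name was dropped if another type had markers among the 10 leading genes and at least as many there. A cluster without any marker among those 10 could thus be named if no other type had one, unless its depth was low. These limits were set after the data were seen. The scripts ran on Python 3.11.15 with numpy 2.4.6, scipy 1.17.1, pandas 2.3.3, scikit-learn 1.9.0 and igraph 0.11.9, and the ratio, its interval and the fold calls were tested on simulated data.

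CPM are summed UMIs of a population scaled to 1000000. Shares carry Clopper-Pearson intervals and ratios exact conditional binomial intervals, both at 95%, which treat the UMIs of 1 cell as independent and cover counting error only. Positions, lengths and shared 90-base words come from GENCODE M21 (GRCm38), which held 27722 of the 27998 identifiers, with words taken from the last 400 bases of a member's transcript. Comparisons over all genes used those with at least 50 UMIs. Named genes are the 5 members of highest and 3 of lowest CPM, those past 1.2-fold from the family, the listed paralogues and p53-linked members, Rps6, Rpsa, the P stalk, the members that varied most across classes, 2 genes per direction from each other translation list, Fau and Gnb2l1. Others were chosen after their values were seen, and values of a few single genes are left out. Members, lists, rules and alternatives were chosen with earlier results of these data known.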

Additional observations from a re-analysis of the deposited data

How the results depend on the processing

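No paired analysis was possible because each genotype has 1 library. Alternatives on length groups, translation lists and clusters as strata were chosen after seeing the data. The ratio of the family share, DKO_Skp2het over DKO, was 0.946. It was 0.911 in cells with at least 3420 UMIs, the lowest in DKO, which left out 1897 DKO_Skp2het cells, 0.964 with cells thinned to 1500 UMIs, 0.948 without mitochondrial UMIs, 0.945 without cell cycle UMIs and 0.971 for the median cell. Standardised to classes and states it was 0.914 and to clusters and states 0.9. It was below 1 under each of these. Dividing over not dividing was 0.836 in DKO and 0.797 in DKO_Skp2het. For DKO it was 0.838 over all barcodes, 0.802 thinned, 0.828 without mitochondrial and 0.855 without cell cycle UMIs, 0.809 for the median cell, and 0.863 and 0.809 with 2 and 5 UMIs as the dividing limit. For DKO_Skp2het these were 0.802, 0.785, 0.79, 0.817, 0.788, 0.831 and 0.759, with 0.802 when doublets were kept and 0.814 from 3420 UMIs.

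The count of members past 1.2-fold from the family stayed at 7 under each alternative, the same 7 except that 6 were shared when cells were thinned or the summed family was the centre. The 11 members lower in CPM became 7 with thinned cells. The 19 pairs of member and class past 1.5-fold became 7 at 2-fold. Restricted to cells from 3420 UMIs and thinned, the shortest length group was at 0.799 and 0.846, the longest at 0.983 and 1.03, members with transcripts of at most 400 bases at 0.702 and 0.743 and other genes of that length at 0.846 and 0.866. So the longest group was no longer above 1 at that minimum. The cause was not tested.

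A class share over that of all other cells crossed 1 for amacrine-horizontal precursor-like cells when thinned (0.993 in DKO, 0.965 in DKO_Skp2het) and for their median cell (0.98 in DKO_Skp2het). It did so in bipolar-like cells of DKO_Skp2het when thinned (0.996), and from 3420 UMIs in Müller glia-like (1.01), rod-like (1.02) and progenitor-like cells (0.94) of that library. Progenitor-like cells also crossed at resolution 0.5 in DKO (1.01), and in DKO_Skp2het at resolution 2.0 (0.995) and with ribosomal protein genes in the clustering (0.745). The order of these middle classes is thus not settled, while amacrine-like, neurogenic precursor-like and immature neuron-like cells kept their side. Class values over all barcodes or with doublets kept were not run, since those barcodes have no cluster. With 3420 UMIs or fewer in many cells, single members cannot be compared cell by cell.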
